A study of Homo sapiens with 9 samples.

Results

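The data described here were the mRNA levels of 10 genes of autophagy initiation and cargo capture in HepG2 cells, a human hepatocellular carcinoma line, with glutamine (Gln) supplied or withdrawn. The genes were ULK1, BECN1, WIPI1, ATG5, ATG12, ATG16L1, MAP1LC3B, GABARAPL1, SQSTM1 and NBR1. They were chosen by name as rows of the deposited expression table, with earlier results of these data known. All 10 were found among the 22587 genes of that table. The RNA-seq data comprised 3 groups of 3 libraries each. The first group was kept with Gln added (ADD), the second was deprived of Gln for 12 h (DE12) and the third for 24 h (DE24). All cells were grown in high-glucose DMEM with fetal bovine serum and antibiotics, and no gene was altered in any group. The sample labels name GlutaMAX, a stabilised dipeptide form of Gln, as the supplement of the Gln-added cells, whereas the treatment text and the methods place it in the Gln-free medium of the deprived cells, and the group names of the labels were used. The Gln-added group carried no time of its own, so time in culture and Gln deprivation cannot be told apart in the comparisons with it. Nor can length of deprivation and time in culture be told apart between 24 h and 12 h. The libraries came from 1 cell line, and since the labels do not say whether the 3 libraries of a group were separate cultures, the p-values measure only the spread between these libraries.

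Autophagy delivers cytoplasm and marked cargo to the lysosome inside a double membrane that grows around them. The ULK1 kinase complex, which mTORC1 holds back when amino acids are plentiful, starts the process, and the lipid kinase complex built on BECN1 then makes phosphatidylinositol 3-phosphate on the growing membrane. WIPI proteins read that lipid, the ATG12, ATG5 and ATG16L1 conjugate helps to attach proteins of the ATG8 family (the LC3 and GABARAP proteins) to the membrane, and receptors such as SQSTM1 and NBR1 tie ubiquitinated cargo to them. Withdrawal of amino acids is a classical trigger of this pathway, in liver as in other tissues. Only mRNA was measured here, and neither protein nor the flow of cargo to lysosomes was.

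Of the 10 genes, 7 were higher after 12 h of deprivation and 7 were higher after 24 h, and none was lower at either time. MAP1LC3B, ULK1 and GABARAPL1 rose at least 2-fold at both times, SQSTM1 by a factor of 1.94 at 12 h and 1.99 at 24 h, and NBR1 by 1.56 and 1.74. ATG16L1 rose by a smaller factor, 1.19 at 24 h, ATG5 rose at 12 h and not past the threshold at 24 h, and WIPI1 the other way round. ATG12 and BECN1 passed the threshold at neither time. These calls came from limma on log2(FPKM + 0.1), where FPKM are fragments per kilobase of transcript model and per unit of sequencing depth and 0.1 is a constant that keeps zeros on the scale. A gene was called at an adjusted p (Benjamini-Hochberg over the 11880 genes whose mean reached 0.5 FPKM) under 0.05. In the same comparisons 60.2% of all genes tested were called at 12 h and 64.7% at 24 h, so 7 of 10 is close to the background and is no result about these genes. By direction, 29.1% of all genes were called higher and 31.0% lower at 12 h, and 33.0% higher and 31.7% lower at 24 h, beside 7 higher and 0 lower among the 10. A call with a rise of at least 2-fold was made for 3 of the 10 at each time and for 2.00% of all genes at 12 h and 3.21% at 24 h. The median log2 difference over the 10 was 0.43 at 12 h and 0.66 at 24 h, against -0.02 and 0.01 over all genes tested. Since the 10 were chosen with earlier results of these data known, these counts and medians describe them and do not test an excess. Both comparisons share the 3 Gln-added libraries, so they are not independent of each other. Libraries without overlap between groups were common. Of the 11880 genes tested, 3901 had all 12 h libraries above all Gln-added ones and 4086 had them below. At 24 h the numbers were 4244 and 4056, beside 7 and 0 of the 10 at each time. In bulk RNA, fewer cells of a kind and less RNA per cell cannot be told apart.

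**Figure D1:**
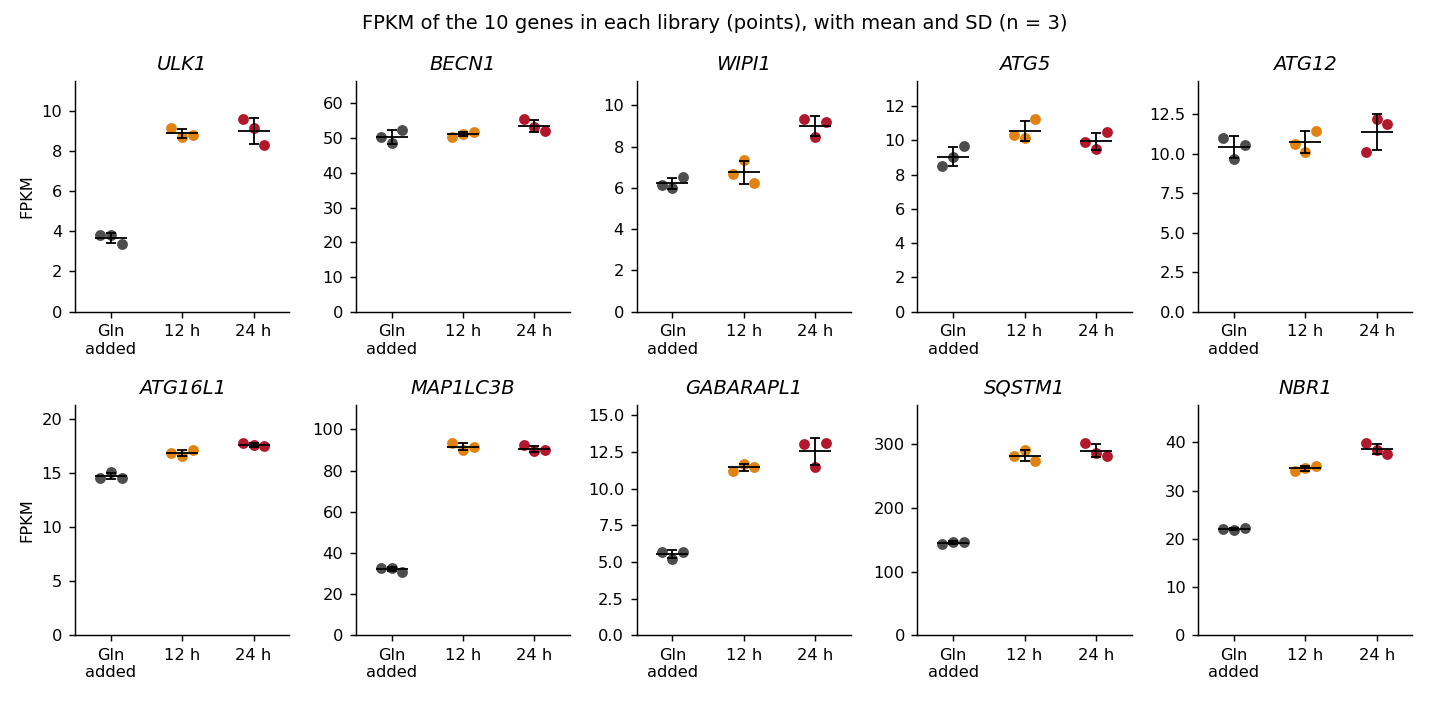
FPKM (y axis, from 0, a separate scale for each gene) of the 10 genes in the 3 libraries of each group (x axis: Gln added, 12 h and 24 h of deprivation); points are libraries, and the bars give the mean and SD (n = 3). For MAP1LC3B, ULK1, GABARAPL1, SQSTM1, NBR1 and ATG16L1 all deprived libraries lie above all Gln-added libraries, whereas the points of BECN1 and ATG12 overlap.

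Depth was even across the libraries. FPKM are not counts, but their steps gave back whole fragment numbers for 100% of genes, with 29621270 to 36261546 fragments on genes per library, the lowest in DE12 replicate 1. Per library, ULK1 was read from 645 to 1845 fragments, GABARAPL1 from 422 to 1077 and SQSTM1 from 16695 to 35158. Counting error was thus small beside the largest rises among the 10, and its part in smaller differences was not tested. All 10 markers of hepatocyte-derived cells, albumin and AFP among them, had a mean of at least 1 FPKM in every group, with a summed level of 7563 to 7663 FPKM with Gln, 6627 to 6698 at 12 h and 6401 to 6734 at 24 h. Markers of endothelial cells summed to at most 0.366 FPKM in any library. Of the fibroblast and stellate markers, which summed to 22.2 to 36.7 FPKM, only ACTA2 had a mean of at least 1 FPKM. The 3 white blood cell markers in the table summed to between 554 and 808 FPKM, nearly all of it LYZ, a gene not limited to blood cells. The part of these levels in the results below was not tested.

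The regions just upstream of the 4 genes with the largest rises are shown first, because these genes moved together and the letters let the reader see what their promoters hold. Each is the 250 bases before the transcript start given by RefSeq on GRCh38.p14, read on the strand of the gene, which is the plus strand for all 4. The windows lie at chr16:87392086-87392335 for MAP1LC3B, chr12:10212627-10212876 for GABARAPL1, chr12:131894372-131894621 for ULK1 and chr5:179820655-179820904 for SQSTM1. Capitals mark the only matches found to 7 short motifs of factors known to act in stress and autophagy gene control.
MAP1LC3B: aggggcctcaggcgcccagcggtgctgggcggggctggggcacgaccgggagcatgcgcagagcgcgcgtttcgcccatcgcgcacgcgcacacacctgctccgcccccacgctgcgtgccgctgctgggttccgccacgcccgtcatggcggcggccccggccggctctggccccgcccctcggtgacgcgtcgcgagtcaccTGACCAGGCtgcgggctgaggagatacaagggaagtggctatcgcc
GABARAPL1: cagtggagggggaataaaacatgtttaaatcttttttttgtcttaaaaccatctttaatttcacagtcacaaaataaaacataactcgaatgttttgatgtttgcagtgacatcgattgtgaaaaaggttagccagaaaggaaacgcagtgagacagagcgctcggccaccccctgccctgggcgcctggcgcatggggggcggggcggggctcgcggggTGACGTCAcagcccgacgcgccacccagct
ULK1: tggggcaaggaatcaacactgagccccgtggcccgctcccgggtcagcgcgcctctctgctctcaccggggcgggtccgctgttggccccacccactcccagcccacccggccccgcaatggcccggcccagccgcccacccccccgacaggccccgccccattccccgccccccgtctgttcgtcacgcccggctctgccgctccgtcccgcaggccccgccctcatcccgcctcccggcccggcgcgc
SQSTM1: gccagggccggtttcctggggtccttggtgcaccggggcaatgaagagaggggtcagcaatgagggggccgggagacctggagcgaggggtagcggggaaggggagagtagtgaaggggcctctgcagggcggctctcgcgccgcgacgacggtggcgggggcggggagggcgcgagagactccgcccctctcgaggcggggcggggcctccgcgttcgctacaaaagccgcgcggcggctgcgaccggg

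The sequence upstream of GABARAPL1 holds a full cyclic AMP response element, TGACGTCA, whose first base is at position -30 from the start, and 1.85% of 35116 RefSeq promoter windows of the same 300 bases (250 before the start and 50 after) hold these letters. That of MAP1LC3B holds a match to the antioxidant response core TGACNNNGC, with its first base at -46, as do 13.3% of all windows. No match to any of the 7 motifs was found for the other 8 genes. The 5 motifs with no match in any of the 10 were the C/EBP-ATF element TGATGNAAN (3.61% of all windows), the E-box CACGTG (7.26%), the CLEAR core TCACGTGA (0.98%), the AP-1 element TGANTCA (7.71%) and the FOXO element TGTTTAC (3.42%). Both strands were searched, and a CLEAR core contains an E-box. A match is a description of the letters and no match says only that they are not in this window. The windows of ATG5 and BECN1 lie 323 and 403 bases from the canonical start of the gene in GENCODE, so another start may be the one used. By base composition ULK1 (78% G and C), MAP1LC3B (74.8%) and SQSTM1 (73.6%) differ from GABARAPL1 (51.6%).

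The initiation kinase ULK1 (chromosome 12, 131894622 to 131923150, plus strand, GRCh38, GENCODE v44) was the least abundant of the 10 with Gln added. Its FPKM were 3.79, 3.83 and 3.36 in the Gln-added libraries, 9.12, 8.68 and 8.79 at 12 h, and 9.56, 9.14 and 8.30 at 24 h. Every deprived library lay above every Gln-added one, and the ranges at 12 h and 24 h overlapped. The log2 difference from Gln added was 1.25 (SE 0.067, adjusted p = 1.02e-07) at 12 h and 1.27 (adjusted p = 5.62e-08) at 24 h. Between 24 h and 12 h it was 0.02 (95% interval -0.13 to 0.17, adjusted p = 0.87). Among the log2 differences of all genes tested ULK1 stood at percentile 98.8 at 12 h and 98.2 at 24 h. A two-sided exact permutation test of its FPKM gave p = 0.1 for each comparison with Gln added, the smallest value that 3 against 3 libraries allow.

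BECN1 (chromosome 17, 42810134 to 42833350, minus strand), the scaffold of the lipid kinase complex, was the second most abundant of the 10 with Gln added and passed the threshold at neither time. FPKM were 50.4, 48.5 and 52.4 with Gln, 50.5, 51.3 and 51.7 at 12 h, and 55.4, 53.1 and 51.9 at 24 h. The groups overlapped in both comparisons with Gln added. The log2 differences were 0.02 (95% interval -0.07 to 0.11, adjusted p = 0.661) at 12 h and 0.09 (-0.00 to 0.17, adjusted p = 0.0772) at 24 h, so a rise of more than 0.17 at either time lies outside the intervals. Of its exonic bases, 17.1% are shared with CNTD1 and PSME3 on the opposite strand. Mean FPKM of PSME3 were 65.5, 54.8 and 48.5 over the 3 groups, in the other direction from BECN1. Whether the counting used strand is not stated, and the part of these overlaps in the values was not tested.

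WIPI1 (chromosome 17, 68420948 to 68457513, minus strand), which binds phosphatidylinositol 3-phosphate on the young autophagosome, was the one of the 10 that rose mainly between the 2 times. Its FPKM were 6.13, 6.0 and 6.53 with Gln, 6.67, 7.35 and 6.25 at 12 h, and 9.31, 8.47 and 9.21 at 24 h. The 12 h libraries overlapped those with Gln, and all 24 h libraries lay above both. At 12 h the log2 difference was 0.11 (95% interval -0.03 to 0.26, adjusted p = 0.164), at 24 h it was 0.52 (SE 0.067, adjusted p = 4.98e-05), and between 24 h and 12 h it was 0.41 (SE 0.067, adjusted p = 0.00205). Of its exonic bases 28.1% lie opposite exons of ARSG or of an unnamed antisense gene, and mean FPKM of ARSG were 1.41, 0.982 and 1.14 over the 3 groups.

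The 3 genes of the conjugate that helps to attach ATG8 proteins to lipid differed from each other. ATG16L1 (chromosome 2, 233210051 to 233295674, plus strand), which places the conjugate on the membrane, had FPKM of 14.5, 15.1 and 14.6 with Gln, 16.9, 16.6 and 17.2 at 12 h, and 17.8, 17.6 and 17.5 at 24 h. None of its groups overlapped, and the rises were small, 0.20 (SE 0.036, adjusted p = 0.000837) at 12 h and 0.26 (adjusted p = 0.000108) at 24 h on the log2 scale. The step from 12 h to 24 h was 0.06 (95% interval -0.02 to 0.14, adjusted p = 0.282).

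ATG5 (chromosome 6, 106045423 to 106325791, minus strand), the partner to which ATG12 is joined, had FPKM of 8.48, 9.04 and 9.64 with Gln, 10.3, 10.1 and 11.2 at 12 h, and 9.88, 9.49 and 10.5 at 24 h. The 12 h libraries lay above all Gln-added libraries and the 24 h libraries overlapped them. ATG5 rose by 0.22 (SE 0.062, adjusted p = 0.0103) at 12 h, and at 24 h the log2 difference was 0.14 (95% interval -0.00 to 0.27, adjusted p = 0.0769). The 24 h and 12 h values did not differ past the threshold (-0.08, 95% interval -0.22 to 0.05, adjusted p = 0.374), so the call at one time and not at the other is no difference between the times.

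ATG12 (chromosome 5, 115828200 to 115841837, minus strand), a ubiquitin-like protein, had FPKM of 11.02, 9.66 and 10.6 with Gln, 10.6, 10.2 and 11.5 at 12 h, and 10.1, 12.2 and 11.9 at 24 h. All groups overlapped. The log2 differences were 0.05 (95% interval -0.13 to 0.22, adjusted p = 0.636) and 0.12 (-0.05 to 0.30, adjusted p = 0.187), and the intervals allow a rise of up to 0.30 at 24 h.

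MAP1LC3B (chromosome 16, 87383953 to 87404779, plus strand) encodes LC3B, the ATG8 protein most used to mark autophagosomes, and it had the largest rise of the 10 at both times. Its FPKM were 32.6, 33.0 and 31.0 with Gln, 93.3, 89.98 and 91.4 at 12 h, and 92.3, 89.5 and 90.1 at 24 h. The deprived libraries lay far above the Gln-added ones, and the 12 h and 24 h libraries overlapped. The log2 difference was 1.51 (SE 0.035, 95% interval 1.43 to 1.58, adjusted p = 2.31e-10) at 12 h, a 2.84-fold rise, and 1.49 (1.41 to 1.57, adjusted p = 2.06e-10) at 24 h. From 12 h to 24 h it was -0.01 (-0.09 to 0.06, adjusted p = 0.81). The gene stood at percentile 99.4 of all genes tested at 12 h and 98.9 at 24 h.

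GABARAPL1 (chromosome 12, 10212458 to 10223128, plus strand), of the GABARAP branch of the same family, was far lower in level. FPKM were 5.69, 5.24 and 5.67 with Gln, 11.2, 11.7 and 11.5 at 12 h, and 13.04, 11.5 and 13.1 at 24 h. All deprived libraries were above all Gln-added libraries, and 24 h replicate 2 fell within the 12 h range. GABARAPL1 rose by 1.04 (SE 0.06, adjusted p = 1.69e-07) at 12 h and by 1.16 (adjusted p = 4.45e-08) at 24 h, with 0.13 (95% interval -0.00 to 0.26, adjusted p = 0.162) between the times. The antisense gene GABARAPL1-AS1, which covers 8.12% of its exonic bases, had at most a mean of 0.0543 FPKM in any group.

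Within the ATG8 family the composition of the mRNA shifted. FPKM are per length of the gene model, so levels of different genes compare within a library only as far as those lengths match the transcripts expressed. That match was not tested. The lengths used differ from the exonic bases in GENCODE, with 3263 against 7535 for SQSTM1 and 4298 against 3403 for WIPI1. All shares and all orders of level between genes depend on these lengths. The 7 family genes summed to 159.5 FPKM with Gln (mean; SD 4.44, n = 3), 229.5 at 12 h and 228.2 at 24 h. MAP1LC3B took 20.2% of that sum with Gln (SD 0.41), 39.9% at 12 h and 39.7% at 24 h, and its share was higher in each deprived library than in each Gln-added one. GABARAP fell from the leading share of 56.4% to 37.1% and 36.5%. The level of GABARAP itself did not pass the test, with mean FPKM of 89.9, 85.2 and 83.3 and log2 differences of -0.08 (adjusted p = 0.218) and -0.11 (adjusted p = 0.0915). GABARAPL2 had 18.8%, 15.5% and 15.9% of the sum, GABARAPL1 3.47%, 5.00% and 5.50%, and MAP1LC3B2 1.18%, 2.46% and 2.35%. MAP1LC3A and MAP1LC3C had means of at most 0.0298 FPKM and were not tested. MAP1LC3B2 is a near-identical copy of MAP1LC3B, and 20% of the 50-base stretches of its GENCODE transcripts also occur in those of MAP1LC3B, so the counting may have split reads between them and its values are uncertain. The two-sided exact permutation test gave p = 0.1 for the shares of each of the 5 tested genes against Gln added at both times, the smallest p the design allows, so these shares cannot pass 0.05 in that test, adjusted over the comparisons made or not.

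**Figure D2:**
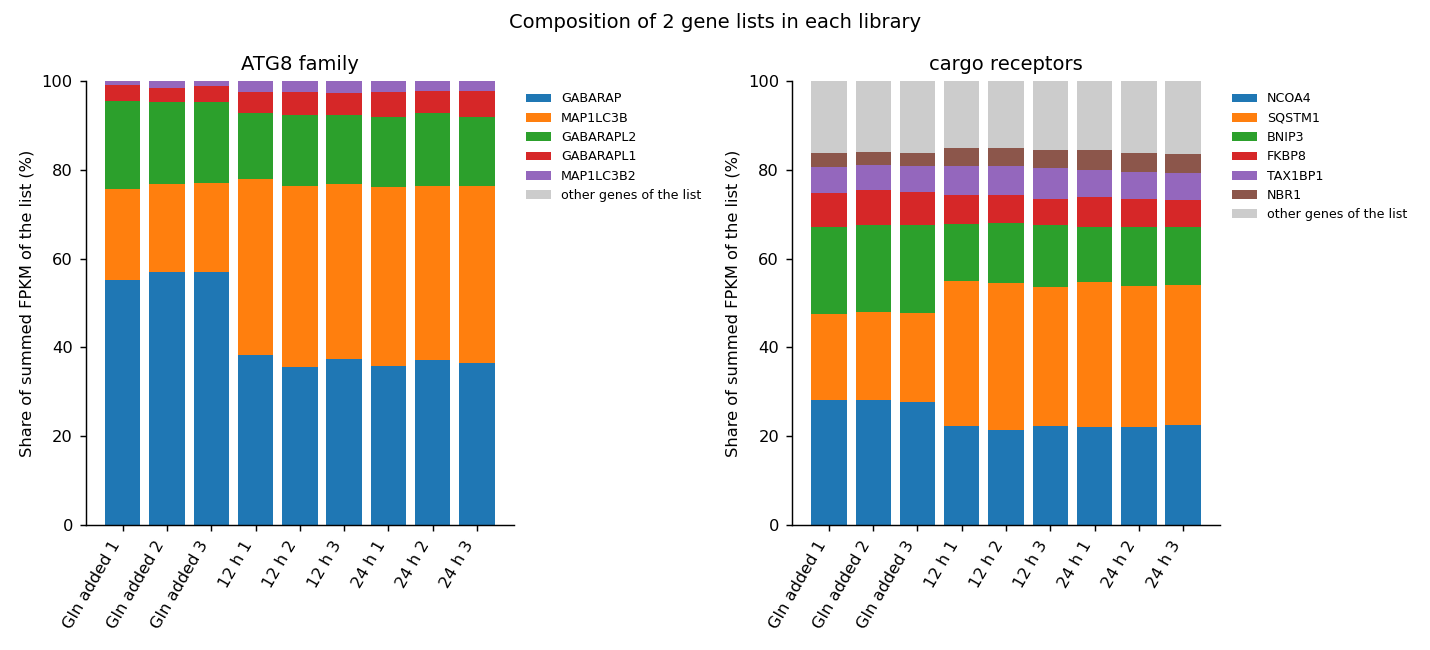
Share of the summed FPKM (y axis, percent, from 0 to 100) taken by each gene of the ATG8 family (left) and of the cargo receptor list (right) in each of the 9 libraries (x axis); colours are genes, with less abundant genes of the list in grey. The MAP1LC3B share goes from 20.2% to 39.9% and the SQSTM1 share from 19.7% to 32.4% at 12 h, and the 24 h bars look like the 12 h bars.

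SQSTM1 (chromosome 5, 179806398 to 179838078, plus strand), the ubiquitin-binding receptor that is itself degraded by autophagy, was by far the most abundant of the 10 in every library. Its FPKM were 143.3, 145.9 and 147.0 with Gln, 281.5, 290.6 and 273.0 at 12 h, and 301.0, 286.0 and 281.6 at 24 h. The deprived libraries all lay above the Gln-added ones, and those of 12 h and 24 h overlapped. The log2 difference was 0.95 (SE 0.036, adjusted p = 8.72e-09) at 12 h and 0.99 (adjusted p = 3.94e-09) at 24 h, with 0.04 (95% interval -0.04 to 0.12, adjusted p = 0.489) between the times. MGAT4B and MRNIP cover 22.4% of its exonic bases on the opposite strand. Their mean FPKM were 52.2, 62.5 and 67.2 for MGAT4B and 6.80, 6.16 and 8.64 for MRNIP, each in the order Gln added, 12 h and 24 h, and their part in the SQSTM1 values was not tested.

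NBR1 (chromosome 17, 43170481 to 43211689, plus strand), a receptor that can act together with SQSTM1, rose further between the 2 times. FPKM were 22.1, 21.8 and 22.3 with Gln, 34.0, 34.7 and 35.0 at 12 h, and 39.8, 38.4 and 37.6 at 24 h. None of its 3 groups overlapped. NBR1 rose by 0.64 (SE 0.035, adjusted p = 1.11e-07) at 12 h and by 0.80 (adjusted p = 1.39e-08) at 24 h, and the 24 h libraries were higher than those at 12 h by 0.16 (SE 0.035, adjusted p = 0.01).

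Among 17 genes listed as cargo receptors the summed FPKM were 737.5 with Gln, 870.8 at 12 h and 906.6 at 24 h. The SQSTM1 share was 19.7% (SD 0.25, n = 3), 32.4% and 31.9%, and the NBR1 share 2.99%, 3.97% and 4.26%. The ferritin receptor NCOA4 led with Gln at 28.1% and had 22.1% and 22.2% after deprivation, and the mitochondrial receptor BNIP3 had 19.7%, 13.4% and 13%. A share depends on the whole sum, and the mean FPKM of NCOA4 itself were 206.9, 192.3 and 201.1. Its level was called lower at 12 h (-0.11, limma adjusted p = 0.00822), but not with libraries set to the same total (-0.07). At 24 h it did not pass (-0.04, adjusted p = 0.225). For SQSTM1, NBR1, NCOA4 and BNIP3 no deprived library overlapped a Gln-added one in share (two-sided exact permutation test, p = 0.1 at both times, the smallest possible). Of the other 13, CALCOCO2 had 2.80% with Gln, 3.70% at 12 h and 3.98% at 24 h, TAX1BP1 had 5.84%, 6.70% and 6.15%, and OPTN had 1.71%, 1.90% and 1.93%. Smaller shares after deprivation were those of FKBP8 (7.65%, 6.23% and 6.30%), RTN3 (2.30%, 1.81% and 1.85%), TEX264 (1.60%, 1.27% and 1.22%) and FUNDC1 (1.15%, 0.873% and 0.782%). The levels of FKBP8, RTN3 and TEX264 did not pass the limma threshold at either time. BNIP3L had 1.99% with Gln, 1.24% at 12 h and 1.89% at 24 h, and its 24 h libraries overlapped those with Gln (two-sided exact permutation test, p = 0.7). TOLLIP, WDFY3, CCPG1 and SEC62 had shares of at most 2.12% and overlapped between Gln added and 12 h, and RETREG1 had a mean of at most 0.00647 FPKM.

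The order of the 10 by mean FPKM, which depends on the lengths of the gene models, changed with deprivation. With Gln it ran from SQSTM1 (145.4) through BECN1 (50.4), MAP1LC3B (32.2), NBR1 (22.1), ATG16L1 (14.7), ATG12 (10.4), ATG5 (9.05), WIPI1 (6.22) and GABARAPL1 (5.53) to ULK1 (3.66), and the libraries of no neighbours in this order overlapped. At 12 h MAP1LC3B stood above BECN1, GABARAPL1 above ATG12 and ATG5, and WIPI1 (6.75) was last. The libraries of GABARAPL1, ATG12 and ATG5 overlapped between neighbours then, and at 24 h so did those of GABARAPL1, ATG12, ATG5, ULK1 and WIPI1. ULK1 was expressed above 64% of all genes of the table with Gln, above 75.8% at 12 h and above 75.9% at 24 h. The 10 genes together summed to 299.7 FPKM with Gln (SD 2.92, n = 3), 524.2 (SD 6.84) at 12 h and 541.7 (SD 14.3) at 24 h. SQSTM1 made up 48.5%, 53.7% and 53.4% of these sums, MAP1LC3B 10.7%, 17.5% and 16.7%, and BECN1 16.8%, 9.76% and 9.87%.

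**Figure D3:**
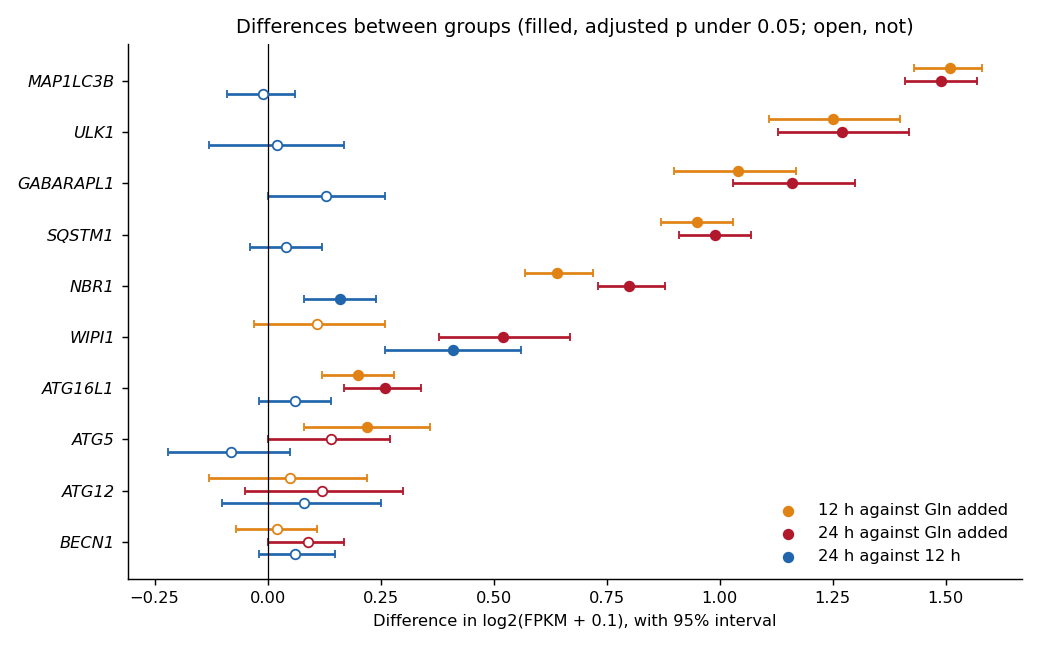
Differences in log2(FPKM + 0.1) (x axis) of the 10 genes (y axis, ordered by the difference at 24 h) for 12 h against Gln added, 24 h against Gln added, and 24 h against 12 h, from limma with 95% intervals; filled points had an adjusted p under 0.05 and open points did not. MAP1LC3B is at 1.51 and 1.49 against Gln added, and only NBR1 (0.16) and WIPI1 (0.41) have filled points for 24 h against 12 h.

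Between 24 h and 12 h, 2 of the 10 genes, WIPI1 and NBR1, were higher at 24 h and none was lower, and 8 did not pass the threshold. Over all genes tested 20.1% were called in this comparison, 9.57% higher and 10.5% lower, so 2 of 10 is the background rate. That split moves with the scaling, from 47.7% of calls higher as deposited to 39.7% with median-ratio scaling and 54.3% with libraries set to the same total, and the 2 of 10 called higher and 0 lower did not. The median log2 difference of the 10 was 0.06, and that of all genes 0.02. For MAP1LC3B and SQSTM1 the 95% intervals of the difference between the times stayed within 0.12 on either side of 0, and for ULK1 within 0.17.

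**Figure D4:**
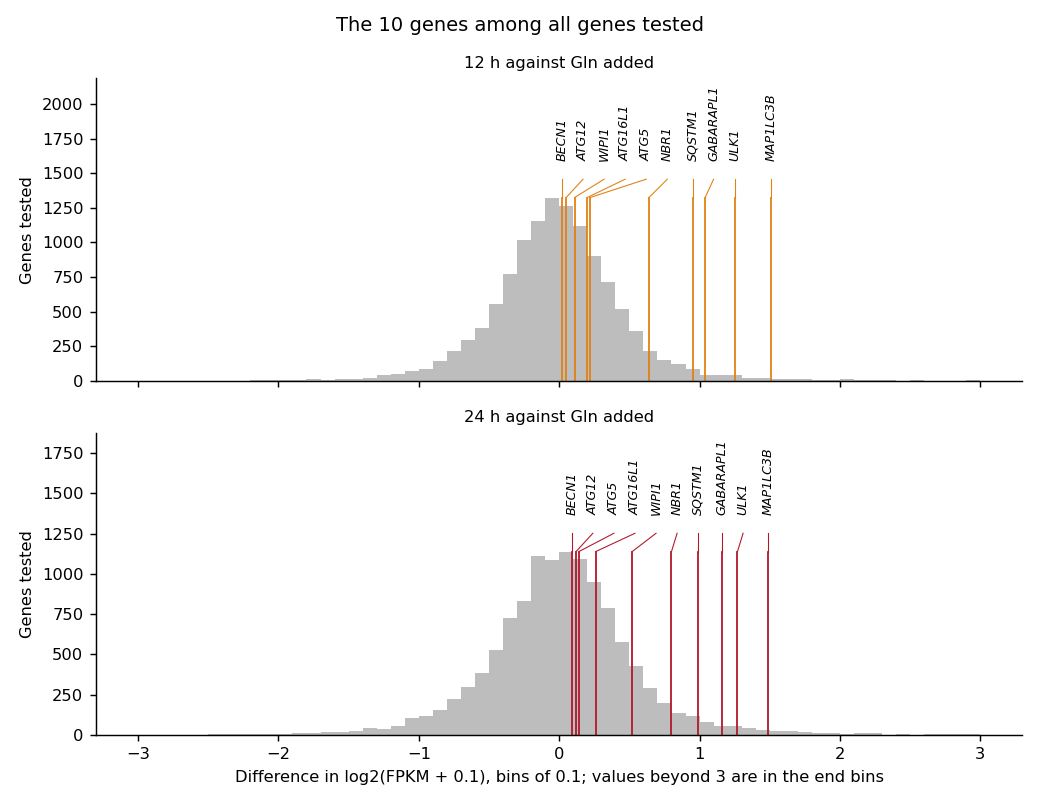
Number of genes tested (y axis) by difference in log2(FPKM + 0.1) from Gln added (x axis, bins of 0.1) at 12 h (top) and 24 h (bottom), with coloured lines at the values of the 10 genes. BECN1 and ATG12 lie within the central mass, and MAP1LC3B lies in the right tail, at percentile 99.4 at 12 h.

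The other genes of the pathway were described from a list of 68 by role, the 10 included, of which 64 were tested. This list and that of the regulators below were also chosen with earlier results of these data known, so their counts are descriptions. ULK2, MAP1LC3A, MAP1LC3C and RETREG1 were below the minimum level. At 12 h 34 were higher and 8 lower, and at 24 h 39 were higher and 5 lower. Without the 10, 27 of 54 were higher and 8 lower at 12 h and 32 higher and 5 lower at 24 h, with median log2 differences of 0.17 and 0.25, beside the 29.1% and 33.0% of all genes called higher. The counts by role that follow stand beside 60.2% of all genes called at 12 h and 64.7% at 24 h. In the initiation complex all 4 genes tested were higher at both times. Beside ULK1 these were its regulatory partners ATG101 (0.68 at both times), RB1CC1 (0.57 and 0.60) and ATG13 (0.26 and 0.36). In the lipid kinase complex 4 of 8 were higher at 12 h and 5 at 24 h, and PIK3R4, its regulatory kinase-like subunit, was lower at both times (-0.27 and -0.22). BECN1 was one of 3 in that complex that did not pass at 12 h and one of 2 at 24 h.

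Of 10 genes of membrane supply and phosphoinositide reading, 8 were higher and 1 lower at 12 h, and 9 were higher and 0 lower at 24 h. WDR45, a relative of WIPI1 in the same lipid-binding family, rose by 1.02 (SE 0.062, limma adjusted p = 2.45e-07) at 12 h and by 1.28 at 24 h. Its FPKM were 6.75, 7.09 and 6.34 with Gln, 14.7, 13.9 and 12.6 at 12 h and 16.8, 16.6 and 16.1 at 24 h, with no overlap between groups. The lipid transfer protein ATG2A had log2 rises of 0.74 (12 h) and 0.82 (24 h), and the lipid scramblase ATG9A by 0.56 and 0.80. TMEM41B, a scramblase of the endoplasmic reticulum, was lower at 12 h (-0.42, limma adjusted p = 0.00115) and did not pass at 24 h (-0.20, adjusted p = 0.0516).

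Of 11 genes of the conjugation machinery, 4 were higher and 3 lower at 12 h, and 3 were higher and 2 lower at 24 h, so 7 and 5 of 11 were called, near or under the background, and this is no result about the group. The lower ones were ATG4C (-0.60 at 12 h and -0.66 at 24 h) and ATG4A (-0.41 at 12 h), proteases that process ATG8 proteins, and ATG10 (-0.52 and -0.60), the enzyme that joins ATG12 to ATG5. ATG10 was near the minimum level, with mean FPKM of 0.684, 0.447 and 0.420, and with a pseudocount of 1 its log2 differences were -0.22 and -0.25. In the ATG8 family 4 of 5 genes tested were higher at both times and none lower. MAP1LC3B2 had log2 rises of 1.57 (12 h) and 1.50 (24 h), and GABARAPL2 by 0.25 and 0.28.

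Among 16 cargo receptors tested 7 were higher and 3 lower at 12 h, and 10 were higher and 2 lower at 24 h. CALCOCO2, a receptor for bacteria and damaged mitochondria, rose by 0.64 and 0.80, and CCPG1, a receptor for the endoplasmic reticulum, by 0.86 (SE 0.23, adjusted p = 0.00642) at 24 h. Receptors of mitochondria are also on the list. BNIP3 was lower at both times (-0.32 and -0.30), and FUNDC1 did not pass at 12 h (-0.16, adjusted p = 0.0513) and was lower at 24 h (-0.26). BNIP3L was lower at 12 h (-0.44, adjusted p = 0.000277) and higher at 24 h (0.22, adjusted p = 0.0168). Its FPKM were 14.9, 14.3 and 14.8 with Gln, 10.6, 10.9 and 11.1 at 12 h and 15.2, 18.9 and 17.4 at 24 h, so the 12 h libraries lay below all others. Of 10 genes of fusion with lysosomes, 3 were higher at 12 h, 4 at 24 h and none was lower, near the 29.1% and 33.0% of all genes called higher, and the median log2 difference was 0.08 at both times.

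**Figure D5:**
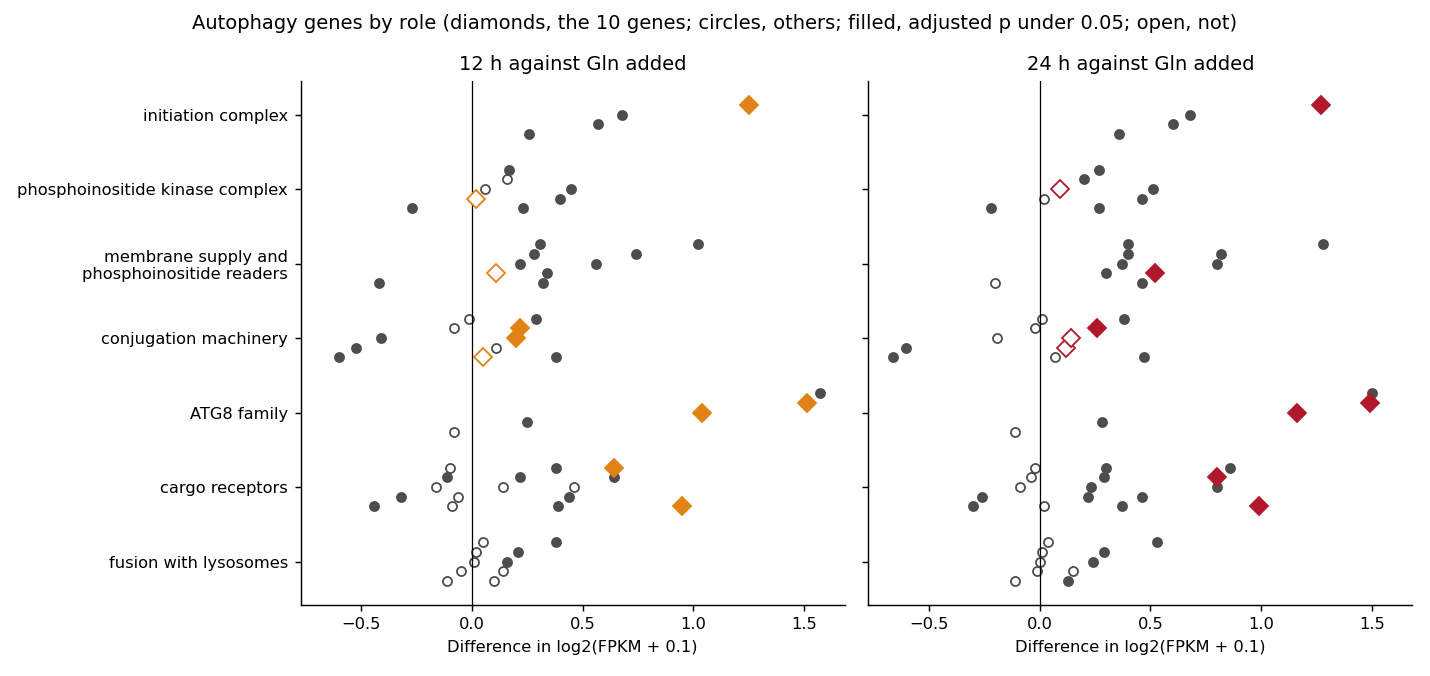
Differences in log2(FPKM + 0.1) from Gln added (x axis) at 12 h (left) and 24 h (right) of the 64 pathway genes tested, by role (y axis); diamonds are the 10 genes, circles the others, and filled symbols had an adjusted p under 0.05. The initiation complex lies wholly to the right of 0, and the conjugation machinery spans from -0.60 to 0.38 at 12 h.

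From 12 h to 24 h, 9.57% of all genes tested were called higher and 10.5% lower. Of the 64 pathway genes 7 were higher, near that background, and 0 lower. Besides WIPI1 and NBR1 these were BNIP3L (0.65, SE 0.069, limma adjusted p = 0.000122), WDR45 (0.27, adjusted p = 0.0124), ATG9A (0.24, adjusted p = 0.00205), VMP1 (0.18, adjusted p = 0.00733), a membrane protein needed for phagophore growth, and CALCOCO2 (0.16, adjusted p = 0.0183).

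The 10 genes of a further list, which encode transcription factors known to act on autophagy genes, with KEAP1, the adaptor that holds back NFE2L2, were also read. Of these 9 were tested, and MITF, with a mean of 0.114 to 0.132 FPKM per group, was below the minimum. At each time 7 were higher and 1 was lower, beside 29.1% of all genes called higher and 31.0% lower at 12 h and 33.0% and 31.7% at 24 h. DDIT3, a factor of the integrated stress response, rose by 1.72 (SE 0.045, limma adjusted p = 4.98e-10) at 12 h and 1.58 at 24 h, and ATF4, the central factor of that response, by 0.88 and 0.85. TFE3, of the family that binds the CLEAR core, rose by 0.77 and 0.71, and its relative TFEB did not pass (0.21, adjusted p = 0.0797, and 0.23, adjusted p = 0.0543). FOXO3 rose by 0.76 and 0.79, FOXO1 by 0.25 and 0.30, NFE2L2 by 0.51 and 0.45 and KEAP1 by 0.25 and 0.21. ZKSCAN3, a repressor of autophagy genes, was lower (-0.43 and -0.33, or -0.25 and -0.20 with a pseudocount of 1). Between 24 h and 12 h limma called 0 of the 9, 1 had an unadjusted p under 0.05, and voom on the recovered fragments also called 0.

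For each of the 10, the genes most like it over the 9 libraries were read from Pearson's r of log2(FPKM + 0.1) over all genes tested. The r are a description, since the libraries fall into 3 groups and many of the 11880 genes separate deprived from Gln-added libraries. MAP1LC3B was most like MARS1 (r = 0.9997), GTPBP2 and ERRFI1 (both 0.9991). ULK1 was most like SLC1A5 (0.9972), GTPBP2 and NFKBIL1 (both 0.9960), and SQSTM1 was most like GDF15 (0.9990), GOT1 (0.9985) and PRSS8 (0.9983). NBR1 was nearest to KLF6 (0.9990), INPP1 (0.9982) and VCAN (0.9977), and GABARAPL1 to ZNF274 (0.9980), SDC4 (0.9967) and FNTA (0.9960). For WIPI1 these were LRRC56 (0.9779), F2 (0.9751) and TMEM106A (0.9715), and for ATG16L1 ZNFX1 (0.9953), TBCC (0.9942) and HELZ2 (0.9936). The lowest of these r were those of the other 3 genes, with SLC35A1 (0.9635) nearest to ATG5, YAF2 (0.9624) to ATG12 and MPHOSPH8 (0.9363) to BECN1.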

How the data were processed

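RNA-seq of 9 HepG2 libraries in 3 groups of 3 was read from 1 table. Total RNA was extracted with TRIzol. The authors aligned reads to GRCh38 with STAR and deposited FPKM per gene and library, with no further scaling between libraries stated. HTSeq and R 3.2.0 are also named in the submitters' processing notes. The methods state strand-specific libraries made with another kit than the labels name, and whether the counting used strand is not stated. DESeq2, which the authors used on counts, was not run. The main test was planned for FPKM, the values released, and the fragment numbers recovered from them were used only for voom, as an alternative. Groups were tested with limma 3.58.1 in R 4.3.3 (lmFit, eBayes with a trend) on log2(FPKM + 0.1) over the 11880 genes whose mean reached 0.5 FPKM, all 9 libraries in 1 fit, with Benjamini-Hochberg adjustment over all genes tested and a call at 0.05. Fold changes on this scale understate those of low genes. In data simulated for 12 h against Gln added, 199 of 11885 genes were changed by 1 log2 unit. Of these 198 were recovered, with 11 false calls. Recovery of smaller changes, or with a larger share of genes changed, was not tested. Single values were compared by two-sided exact permutation tests. Fragment numbers were recovered from the FPKM steps (tolerance 0.02 of a fragment) for voom. Positions are from GENCODE v44 and promoter windows from RefSeq. The text names all 10 genes, in each comparison up to 5 other pathway genes with the largest rise and 5 with the largest fall among those called, the regulators, the genes of the shares, and for each of the 10 up to 3 of the highest r. The initiation partners ATG13 and RB1CC1, GABARAPL2 and GABARAP were named as well, after their values were seen. The 10 genes and all lists were chosen with earlier results of these data known. Same-group libraries differed by more than counting noise (chi-square per degree of freedom 2.94 to 15.3), so no pair was counted as 1 library deposited more than once. Alternatives were 2 other pseudocounts, 2 filters, 2 scalings, 2-group fits, a replicate block, eBayes without a trend, voom, and each library left out.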

Additional observations from a re-analysis of the deposited data

Results flagged for a closer look

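Levels at 24 h and at 12 h of deprivation differed for 7 pathway genes in the direct test of the difference (limma, adjusted p under 0.05), each higher at 24 h. The log2 differences were 0.65 for BNIP3L, 0.41 for WIPI1, 0.27 for WDR45, 0.24 for ATG9A, 0.18 for VMP1, 0.16 for NBR1 and 0.16 for CALCOCO2. Of all genes tested 9.57% were called higher in this comparison, so 7 of 64 pathway genes is near the background and is no result about the pathway.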

How the results depend on the processing

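In all, 200 results were recomputed under the alternatives, which gave 2442 values. Of 1998 recomputed fold change values 1946 kept their direction and their side of the threshold, 468 of 480 for the 10 genes. By fold change, 23 of the 30 of the 10 genes kept both under every alternative. Other genes entered only where called as reported, or as regulators against Gln added. Of 192 recomputed counts, 190 stayed within 1.5 times the count as reported. All 252 recomputed shares moved by less than 1 SD. With 1 of 3 libraries left out a mean cannot move that far, so there the outcome was fixed in advance and shows nothing about the shares. Of the 10, 7 were called under every alternative at 12 h, 7 to 9 at 24 h and 2 to 3 between the times. Every reversal was of a difference near 0 that was not called. ULK1 between 24 h and 12 h was -0.0006 with median-ratio scaling and -0.03 to 0.08 with 1 library left out (negative without DE24 replicate 1). At 12 h BECN1 was -0.01 to 0.05 (negative without ADD replicate 2) and ATG12 -0.01 to 0.09 (negative without ADD replicate 2 and without DE12 replicate 3) with 1 library left out. At 24 h, rescaling to the same total called BECN1 (0.13, adjusted p = 0.0147) and ATG5 (0.18, adjusted p = 0.0259). Without ADD replicate 3 BECN1 (0.11, adjusted p = 0.0429) and ATG5 (0.18, adjusted p = 0.0377) were called too, and without DE24 replicate 1 ATG12 was (0.21, adjusted p = 0.0222). GABARAPL1 between the times was called without DE24 replicate 2 (0.19, adjusted p = 0.0401). The regulators called between the times rose from 0 to 1, a lower one, with median-ratio scaling, and ranged from 0 to 1 with 1 library left out (1 without DE24 replicate 1). The causes were not tested.

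Of the 95 differences of other genes, none changed direction under any alternative. These were only the differences called as reported and those of the regulators against Gln added. Most differences near 0 were thus left out beforehand, and a change of direction was unlikely from the start. With a pseudocount of 1 in place of 0.1, ATG10 was -0.22 at 12 h and -0.25 at 24 h, and ZKSCAN3 -0.25 and -0.20, all still called. With 1 library left out, some lost their call. Among genes only counted by role above, AMBRA1 lost it at both times, ATG2B and UVRAG at 12 h, and RUBCN at 24 h. ATG10 at 12 h lost it without ADD replicate 1, ADD replicate 2, DE12 replicate 1 or DE12 replicate 3, with differences of -0.46 to -0.55, and at 24 h without ADD replicate 1 (-0.54) or DE24 replicate 2 (-0.46). BNIP3L at 24 h lost it without ADD replicate 2 (0.20) or DE24 replicate 2 (0.14), CALCOCO2 between the times without DE12 replicate 1 (0.15), DE12 replicate 2 (0.15) or DE24 replicate 3 (0.16), and ZKSCAN3 at 24 h without ADD replicate 2 (-0.27), without DE24 replicate 2 (-0.25) or with no filter. TFEB was called at 12 h with the same total (0.24) or without DE12 replicate 3 (0.31), and at 24 h with the same total (0.27), the 2-group fit, the replicate block or voom (0.23 each).

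No pairing of libraries by replicate number was seen. Same-numbered libraries had correlations of -0.14 to 0.28 and correlated best with their own number in 6 of 18 cases. Between different numbers, DE12 replicate 3 had -0.47 with DE24 replicate 1 and 0.30 with DE24 replicate 2. What lies behind these 2 values was not tested. Correlations from 3 libraries per group cannot exclude that same-numbered libraries were handled together. With the replicate block 7 of the 10 genes were called at 12 h, 8 at 24 h (ATG5 at 0.14, adjusted p = 0.0249) and 2 between the times. The scalings moved the median of all genes by less than 0.1, to at most 0.059, and moved the share of higher among the genes called between 24 h and 12 h from 47.7% to 39.7% (median-ratio) and 54.3% (same total). The 3 libraries per group limit the exact tests. Each of the 10 genes was read from at least 422 fragments in every library, and the part of counting error in small differences was not tested.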
